A study of Mus musculus with 146 samples.

Results

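Heat shock chaperones are proteins that bind unfolded or newly made proteins, and 10 of their genes were followed here in single germ cells of the newborn mouse ovary: Hspa2, Hspa1a, Hspa1b, Hspa1l, Hspa5, Hspa8, Hspa9, Hspd1, Hsp90aa1 and Hsp90ab1. They were chosen by symbol among the 52605 gene symbols of each cell, and all 10 were listed. The cells came from 5 ovaries of C57/BL6J females born in 1 litter and taken at age D0.5, the time when germ cell cysts break up and primordial follicles form. Ovaries were dissociated with trypsin, EDTA and DNase at 37 °C, germ cells were picked by mouth pipette, and polyadenylated RNA was made into Smart-seq2 libraries, each labelled as 1 cell, with spike-in RNA of known sequence. Of 146 libraries, all but 1 had at least 1 TPM (transcripts per 1000000 transcripts) of the germ cell gene Ddx4, and these cells were kept.

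The members belong to the Hsp70, Hsp60 and Hsp90 families. Hsp70 proteins (Hspa genes) grip short stretches of unfolded protein in a cycle driven by ATP, with J-domain proteins that bring substrates and exchange factors that reset the cycle. Hspa8 is the constitutive Hsp70 of the cytosol, Hspa1a and Hspa1b are its stress-inducible relatives, Hspa1l and Hspa2 are best known from male germ cells, Hspa5 (BiP) works in the endoplasmic reticulum and Hspa9 (mortalin) in mitochondria. Hspd1 (Hsp60) forms the folding chamber of mitochondria with its lid Hspe1. Hsp90aa1 and Hsp90ab1 are the inducible and the constitutive cytosolic Hsp90, which finish the folding of kinases and receptors.

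The labels tie no cell to an animal, so all cells are 1 sample. Cells are not replicates, so no p-value is given, and every spread below is a spread between cells of 1 litter. The reads that Salmon assigned numbered 4074810 in the shallowest and 26855273 in the deepest of them, with a median of 9498860. Cells were grouped in 3 clusters rebuilt from 20 oocyte and meiosis genes, none of them a chaperone. Cluster 1 (19 cells) had the highest mean of the meiotic gene Sycp2 (495 TPM, against 167 and 65.7), and cluster 3 (34 cells) that of the zona pellucida gene Zp3 (546 TPM, against 0.0943 in cluster 1 and 12.8 in cluster 2). Cluster 2 held the other 92 cells. Among the kept libraries, 7 pairs nearly repeated each other, and the labels do not say whether a pair comes from 1 cell. Within these pairs the correlation of log2(TPM + 1) over 11759 coding genes was 0.989 to 0.996, against at most 0.809 for any other pair of libraries. Their reads differed by 1.65 to 4.46 chi-square units per degree of freedom, above the 1 of sampling noise, and those of other pairs in cluster 2 by at least 176. All 7 pairs lie in cluster 2, so that it may hold 85 distinct cells. Each library has a label of its own, so all were counted. With the pairs averaged, in the same clusters, no cluster mean of at least 1 TPM of a member moved by more than 6.55%, and no log2 ratio of a member between clusters by more than 0.08 (Hspa2, cluster 2 over 1). A difference from the study may come from the rebuilt clusters. Of the germ cell markers that did not select the cells, Dazl, Sycp3 and Figla reached 1 TPM in every kept cell and Mael in all but 2, while Dppa3 was at a mean of 2.27 TPM in cluster 1 and 1702 TPM in cluster 3. The pregranulosa marker Foxl2 did so in 5, after the authors had removed libraries positive for it by qPCR. Blood or endothelial markers, almost all of it globin, reached 10000 TPM in 11 cells, and stroma and pregranulosa markers summed to 50 TPM or more in 16 others.

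Promoter sequence is shown for members at opposite ends of the range: the Hspa1a and Hspa1b pair, which had almost no reads in most cells, Hspa5, whose level differed most between clusters among the abundant members, and Hspd1, which differed little. The bases are those before the RefSeq start on GRCm38.p6, on the strand of the gene. Capitals mark a heat shock element in its short form of 2 units (GAANNTTC, a palindrome, so 1 pattern reads both strands) or its form of 3 units, in which GAA and TTC alternate with 2 bases between them, and the endoplasmic reticulum stress element ERSE (CCAAT, 9 bases, CCACG, either strand).
Hspa1a, chr17:34972157-34972406, minus strand: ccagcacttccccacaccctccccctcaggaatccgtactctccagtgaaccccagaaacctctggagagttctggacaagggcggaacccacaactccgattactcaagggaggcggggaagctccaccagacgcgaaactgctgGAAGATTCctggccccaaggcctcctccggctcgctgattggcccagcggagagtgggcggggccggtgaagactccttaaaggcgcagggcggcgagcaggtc
Hspa1b, chr17:34959239-34959488, minus strand: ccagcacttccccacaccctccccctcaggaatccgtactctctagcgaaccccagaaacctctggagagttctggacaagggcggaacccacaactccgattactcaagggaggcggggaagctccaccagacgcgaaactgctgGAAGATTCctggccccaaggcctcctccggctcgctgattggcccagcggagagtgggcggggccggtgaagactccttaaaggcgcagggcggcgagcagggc
Hspa5, chr2:34771840-34772089, plus strand: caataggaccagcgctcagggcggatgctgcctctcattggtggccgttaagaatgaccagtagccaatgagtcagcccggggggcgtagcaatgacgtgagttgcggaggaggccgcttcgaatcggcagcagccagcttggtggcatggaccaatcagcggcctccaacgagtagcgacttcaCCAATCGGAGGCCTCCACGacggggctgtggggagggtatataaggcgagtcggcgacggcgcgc
Hspd1, chr1:55088025-55088131, minus strand: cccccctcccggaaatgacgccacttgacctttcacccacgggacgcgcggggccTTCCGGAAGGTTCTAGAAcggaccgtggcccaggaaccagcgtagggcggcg

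The windows of Hspa1a and Hspa1b differ at 3 of 250 bases, and both hold 1 heat shock element of 2 units, its last base 97 bases before the start. That form is present in 6.69% of the 32851 RefSeq windows of 250 bases. Hspa5 holds 1 ERSE, 47 to 65 bases before its start, with 4 copies of CCAAT (both strands, the first bases of the ERSE included) in the window. The ERSE is present in 0.113% of windows and CCAAT in 33.8%. RefSeq gives Hspd1 starts at 55088243 and 55087932. The stretch shown lies 93 to 199 bases before the second, between the first exon of Hspe1, which is read from the other strand, and the next exon model of Hspd1. It holds 2 overlapping matches to the 3-unit heat shock element, a form found in 0.466% of windows, and these share a match to the 2-unit form. The windows of Hspa2 and Hspa1l hold neither a heat shock element of these letters nor an ERSE. A match to these letters is a description of the sequence, not evidence that a factor binds there in these cells.

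Hsp90aa1 was the most abundant member, with a mean of 5780 TPM over the kept cells (lowest 389, median 5500, highest 15636). Hspa8 followed at 1255 TPM (0.925, 1017 and 5447) and Hsp90ab1 at 951 TPM (71.8, 969 and 1578). Hspd1 had a mean of 761 TPM (0.549, 771 and 1649), Hspa5 of 389 TPM (0.439, 338 and 1522) and Hspa9 of 142.4 TPM (0.205, 132.4 and 834). These 6 genes were broadly expressed: each reached 1 TPM in all but at most 3 cells, and both Hsp90 genes did so in all of them (100%, exact 95% interval from 97.5%). Hspa2 had a mean of 14.1 TPM but a median of 0.0642, and Hspa1a, Hspa1b and Hspa1l had a median of 0. The 10 genes together made up a median of 0.963% of the TPM of a cell, of which Hsp90aa1 was 60.8%.

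**Figure D1:**
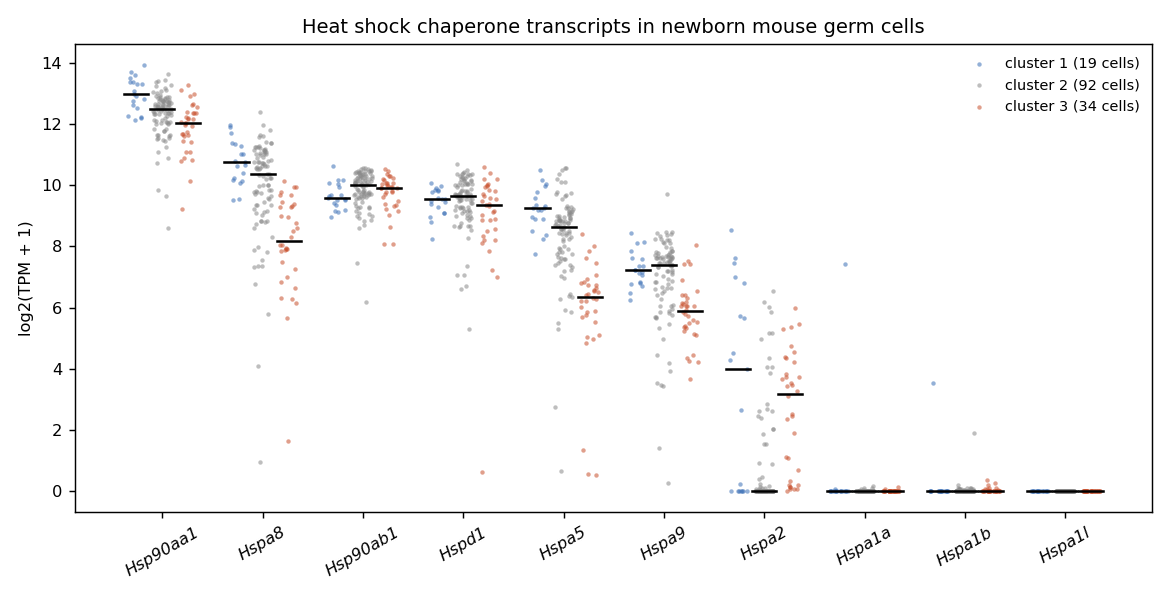
Level of the 10 chaperone genes in each kept cell, as log2(TPM + 1) on the vertical axis; points are cells, coloured by rebuilt cluster, and black bars are cluster medians. Hsp90aa1, Hspa8, Hsp90ab1, Hspd1, Hspa5 and Hspa9 are present in nearly every cell, Hspa2 is scattered between 0 and 375 TPM, and Hspa1a, Hspa1b and Hspa1l lie at 0 in nearly every cell.

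Within single cells the order of neighbouring levels was firm at the top and loose from Hspa8 down to Hspa9. Hspa8 exceeded Hsp90aa1 in 1 cell only. Hspa8 exceeded Hsp90ab1 in 75 cells and lay below it in 70, with a median log2 ratio of 0.05 and an SD between cells of 1.5, so these neighbours did not differ beyond their spread. Hspd1 lay above Hsp90ab1 in 38 cells (median log2 ratio of Hsp90ab1 over Hspd1 0.41, SD 0.87), Hspa5 above Hspd1 in 23 (Hspd1 over Hspa5 1.21, SD 1.58) and Hspa9 above Hspa5 in 22 (Hspa5 over Hspa9 1.36, SD 1.75). In these 3 pairs too the median was smaller than the SD. The most even member from cell to cell was Hsp90ab1, with a coefficient of variation of 0.333, followed by Hspd1 (0.445) and Hsp90aa1 (0.472), while those of Hspa9, Hspa8 and Hspa5 were 0.752, 0.807 and 0.868.

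The order also rests on the lengths that Salmon assigned. The effective length behind each TPM was recovered from the spike-ins of the same cell. For Hsp90aa1 it had a median of 1088 bases (797 to 2893), although the longest coding transcript of the gene has 3281, and for Hspa8 a median of 1373 bases against 2394. For Hsp90ab1 it was 2368 against 2520 bases. GENCODE lists 8 transcript models of Hsp90aa1 and 10 of Hspa8, some of them short, and a shorter length gives a higher TPM for the same number of reads. With estimated counts per 1000000 reads (CPM) divided by the length of the longest coding transcript in kilobases, Hsp90aa1 remained first at 1703, but Hsp90ab1 (782) then stood above Hspa8 (590.0) and Hspd1 (501), followed by Hspa5 (219) and Hspa9 (114.5).

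Hsp90aa1 exceeded Hsp90ab1 in every kept cell, with a median log2 ratio of 2.50 (0.70 to 5.30) in TPM and of 1.49 in CPM, a scale that does not divide by length. Hsp90aa1 (chr12:110690605-110702728, minus strand) is the inducible and Hsp90ab1 (chr17:45567775-45573271, minus strand) the constitutive cytosolic Hsp90. By cluster the median log2 ratio in TPM was 3.30, 2.53 (2.57 with the near-repeat pairs averaged) and 2.24 in clusters 1, 2 and 3. In CPM it was 2.08, 1.44 and 1.43.

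Hspa5, which encodes BiP, was the abundant member that differed most between clusters. Its TPM was 214, 608 and 1451 (lowest, median, highest) in cluster 1, against 0.566, 399.8 and 1522 in cluster 2 and against 0.439, 80.6 and 338 in cluster 3. The clusters 1 and 3 hardly overlapped: all 34 cells of cluster 3 lay below the median of cluster 1, and 31 of them below its lowest cell. The means of clusters 1, 2 and 3 were 666, 440.2 and 93.6 TPM, which are log2 ratios of -0.60 for cluster 2 over 1 and -2.22 for cluster 3 over 2. Of 12265 coding genes, 1.47% had a lower ratio in the second comparison. With the 7 pairs averaged these were -0.64 and -2.18. Hspa5 lies at chr2:34771970-34777547 on the plus strand.

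Hspa8 had the same shape in its later step. Its TPM was 740.1, 1754 and 4023 in cluster 1, against 0.925, 1313 and 5447 in cluster 2 and against 2.11, 289 and 1128 in cluster 3. Again all 34 cells of cluster 3 lay below the median of cluster 1, and 28 below its lowest cell. The means were 1963, 1420 and 414 TPM, with log2 ratios of -0.47 and -1.78 (-0.48 and -1.76 with the pairs averaged), and 3.30% of coding genes had a lower ratio for cluster 3 over 2. The gene lies at chr9:40800984-40810087 on the plus strand and carries the small nucleolar RNAs Snord14c, Snord14d and Snord14e within it.

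Hspa9 was level between clusters 1 and 2 and lower in cluster 3. It had 74.9, 149 and 344 TPM in cluster 1, against 0.205, 166 and 834 in cluster 2 and against 11.6, 57.8 and 263 in cluster 3, and 30 of 34 cells of cluster 3 lay below the median of cluster 1. The means of 166, 164 and 70.2 TPM gave log2 ratios of -0.02 and -1.21. Hspd1, the mitochondrial Hsp60, had 306, 751 and 1085 TPM in cluster 1, against 38.7, 801 and 1649 in cluster 2 and against 0.549, 648 and 1537 in cluster 3. The clusters of Hspd1 overlapped over most of their range, and its log2 ratios were 0.12 and -0.28.

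Of the Hsp90 pair, Hsp90aa1 was higher in cluster 1 in TPM and Hsp90ab1 was not. In CPM, which uses no length, Hsp90aa1 stayed under the limit of 1.5-fold, at -0.50 for cluster 2 over 1 and -0.49 for cluster 3 over 1, and the latter was -0.11 on the spike-in scale. Hsp90aa1 had 4550, 8135 and 15636 TPM in cluster 1, against 389, 5768 and 12862 in cluster 2 and against 599.5, 4172 and 9902 in cluster 3, with log2 ratios of -0.61 for cluster 2 over 1 and -0.39 for cluster 3 over 2. Only 3 of 34 cells of cluster 3 reached the median of cluster 1. Hsp90ab1 had 500, 774 and 1578 TPM in cluster 1, against 71.8, 1027 and 1534 in cluster 2 and against 267, 964 and 1467 in cluster 3, so the clusters overlapped, and its log2 ratios were 0.23 and -0.11.

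Counted together, 4 members (Hspa2, Hspa1a, Hspa5 and Hsp90aa1) were lower in cluster 2 than in cluster 1 by at least 1.5-fold and 0 were higher, of the 8 whose mean reached 1 TPM on either side. Among all coding genes with that minimum, 24.7% were lower and 24% higher. For cluster 3 over 2, Hspa5, Hspa8 and Hspa9 were lower and Hspa2 was higher, of 7 members, beside 30.1% lower and 18.9% higher among coding genes. For cluster 3 over 1, 6 of 8 members were lower (Hspa2, Hspa1a, Hspa5, Hspa8, Hspa9 and Hsp90aa1) and 0 higher, beside 38.4% and 27.7%. Hspa5 and Hsp90aa1 pass the limit (0.58 on the log2 scale) narrowly for cluster 2 over 1, and the count was 2 without cell 26 of cluster 1 and also without cell 100. Hspa1a reached 1 TPM in cluster 1 only and counts through cell 100 alone, and without it the count for cluster 3 over 1 was 5. The comparisons share cluster means, so they are not separate evidence. With the near-repeat pairs averaged, each of these counts of members was the same. Hspa1b and Hspa1l stayed under the minimum in every comparison.

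The scale moved some of these values. In CPM the log2 ratio of Hsp90aa1 for cluster 3 over 1 was -0.49 in place of -1.0, and that of cluster 3 over 2 was 0.01. After division by the spike-in TPM of the cell, the median of all coding genes for cluster 3 over 2 was 0.64, in place of -0.20 in TPM. On that scale Hspd1, Hsp90aa1 and Hsp90ab1 stood at 0.72, 0.68 and 0.90, near or above that median, while Hspa9 was at -0.28, Hspa8 at -0.63 and Hspa5 at -1.30. Relative to the median of all coding genes on each scale, Hspd1, Hsp90aa1 and Hsp90ab1 moved little, from -0.08, -0.19 and 0.09 in TPM to 0.08, 0.05 and 0.27 on the spike-in scale. Hspa5 stayed at -2.02 and -1.93, Hspa8 at -1.58 and -1.27, and Hspa9 at -1.01 and -0.92, relative to the same medians. On the spike-in scale 9.52% of coding genes were lower and 52.4% higher for cluster 3 over 2.

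**Figure D2:**
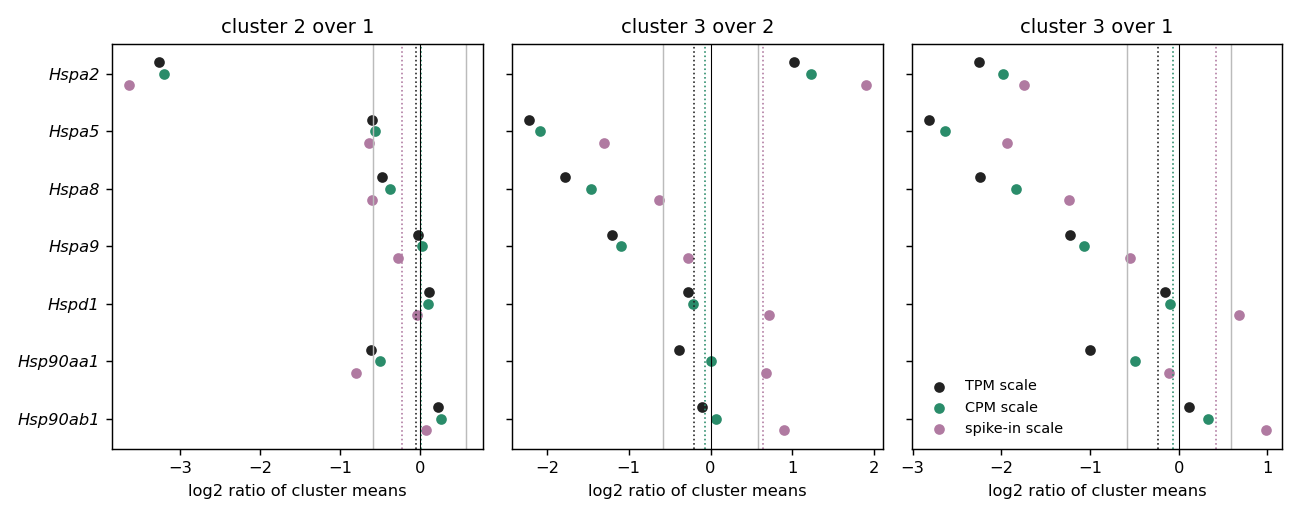
Log2 ratio of cluster means (pseudocount of 1) for 7 members in the 3 comparisons of clusters, on the TPM, CPM and spike-in scales; dotted lines are the median of all coding genes on each scale and grey lines mark 1.5-fold. Hspa5, Hspa8 and Hspa9 lie left of the dotted line of their own scale for cluster 3 over 2 on every scale, down to -2.22 for Hspa5 in TPM.

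Without clusters, the cells were also placed along the first principal component of the same 20 genes, from Sycp2-rich to Zp3-rich. Spearman's rho with this order over the kept cells was -0.73 for Hspa5, -0.60 for Hspa8, -0.47 for Hspa9, -0.45 for Hsp90aa1, -0.14 for Hspd1, -0.07 for Hsp90ab1 and 0.23 for Hspa2. The scale matters here too: in CPM Hsp90aa1 was at -0.19, and on the spike-in scale Hspa5 was at -0.51, Hspa8 at -0.35, Hspa9 at -0.21, Hsp90aa1 at -0.02, Hspd1 at 0.14, Hsp90ab1 at 0.23 and Hspa2 at 0.28. With the near-repeat pairs averaged, no rho with the order or between abundant members moved by more than 0.03. These cells share litter, dissociation and reference, so rho is a description. In 5 equal steps of 29 cells, the median of Hspa5 was 608, 463, 362, 158 and 86.9 TPM. For Hspa8 it was 1612, 1665, 1559, 661 and 363 TPM, so that its medians were lower from the fourth step, although single cells down to 54.8 TPM lay in the second step and its mean was 1960 TPM in the first step and 1547 TPM in the second. Hsp90ab1 went through 841, 1124, 1029, 840.1 and 980 TPM with no steady direction.

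**Figure D3:**
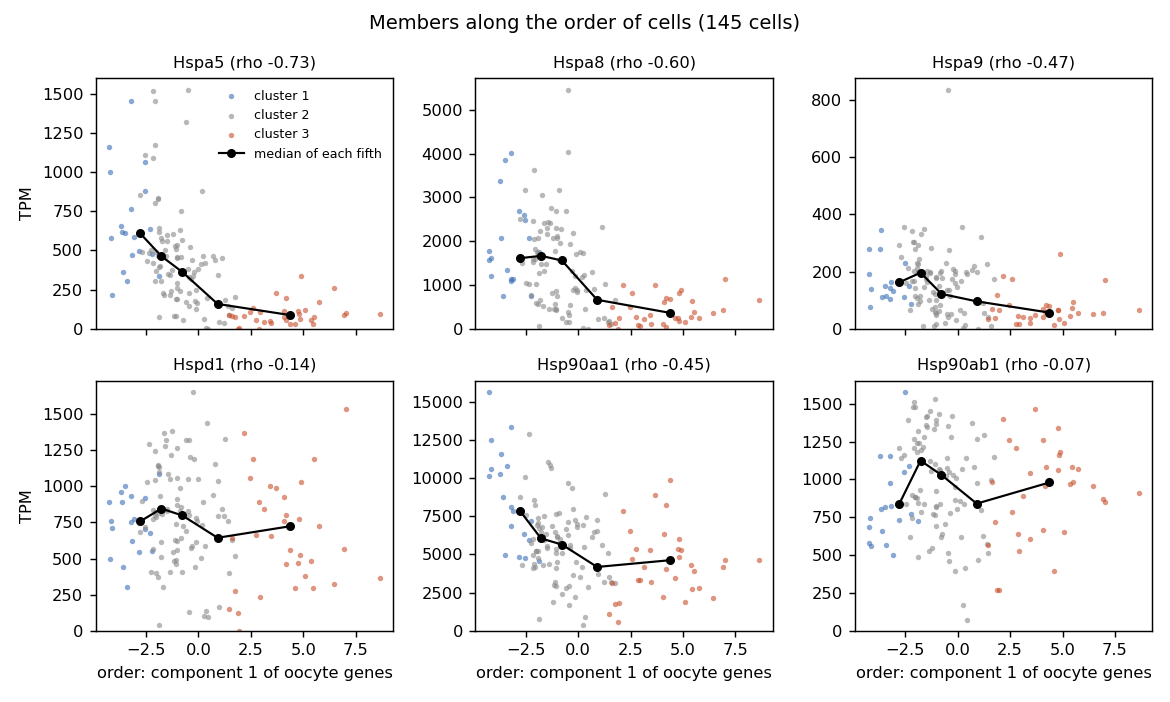
TPM of 6 members in each kept cell against the position of the cell on the first component of 20 oocyte and meiosis genes; points are cells coloured by cluster, and black circles are medians of 5 equal steps of the order. Hspa5 goes from 608 to 86.9 TPM over the steps, while Hspd1 and Hsp90ab1 stay within their spread.

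The mitochondrial share of the reads moved with the same members. Its median was 5.20%, 6.13% and 7.81% in clusters 1, 2 and 3, and its rho with TPM over all cells was -0.63 for Hspa8, -0.52 for Hspa9, -0.51 for Hspa5, -0.50 for Hsp90aa1, -0.40 for Hspd1 and -0.28 for Hsp90ab1. Within cluster 2 it was -0.66 for Hspa8 and -0.45 for Hspa5. Within cluster 3 it was -0.47 and -0.24, and within cluster 1 it was 0.01 and -0.22. The 5 cells with under 10 TPM of Hspa5 had a median mitochondrial share of 15.8%, against 6.26% over all cells. The part of this share in the differences between clusters was not tested.

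Hspa2, the testis-enriched Hsp70 (chr12:76404176-76406938, plus strand), was uneven from cell to cell, with any read in 12 of 19 cells of cluster 1, 33 of 92 of cluster 2 and 33 of 34 of cluster 3. At least 1 TPM was found in 11 of 19 cells of cluster 1 (57.9%, exact 95% interval 33.5 to 79.7%), in 22 of 92 of cluster 2 (23.9%, 15.6 to 33.9%) and in 24 of 34 of cluster 3 (70.6%, 52.5 to 84.9%). With the near-repeat pairs averaged it was 20 of 85 cells of cluster 2 (23.5%, 15 to 34%). The interval of cluster 2 lies below that of cluster 3 and overlaps that of cluster 1 by a little. These intervals cover counting error only, and since cells are not replicates, their overlap is no test of a difference between clusters. Its TPM was 0, 15.04 and 375 in cluster 1, against 0, 0 and 91.97 in cluster 2 and against 0, 8.07 and 62.5 in cluster 3, with means of 60.3, 5.36 and 11.9. The log2 ratio for cluster 2 over 1 was -3.27, and it ranged from -3.50 to -2.78 as each cell was left out. The size rests on the clusters and on a few high cells: it was -1.13 with clusters of 2000 variable genes, -1.91 for equal parts of the order and -2.48 as a difference of mean log2 values. For cluster 3 over 1 the log2 ratio of -2.25 became -0.57, -1.12 and -0.77 under the same alternatives, and the first of these no longer passes the limit of 0.58. The median depth was 9615239, 8945082 and 10723616 reads per cell in clusters 1, 2 and 3. Other measures of the libraries differed, with a median of 7357, 7028.5 and 8197 genes at 1 TPM and of 10423, 12207 and 6555 TPM of spike-ins. The rho of Hspa2 over the kept cells was 0.31 with the number of genes and -0.26 with the spike-in TPM, and their part in its shares was not tested.

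The heat-inducible pair Hspa1a and Hspa1b had almost no reads outside 3 cells. Hspa1a had 1 or more estimated reads in 9 of the kept cells, and 99.6% of all its reads (3073, or 172 TPM) came from cell 100 of cluster 1. Every other cell had at most 3 reads. The mean of 9.04 TPM in cluster 1 is thus the value of 1 cell, and without it the log2 ratio of Hspa1a for cluster 2 over 1 was 0.00 in place of -3.32. In that cell Hsph1 was at 278 TPM, Dnajb1 at 44.6 and Hmox1 at 42.3, while Hspb1 and Bag3 were at 0. Blood or endothelial markers summed to 3486 TPM there, against a median of 47.3 over the kept cells, and stroma and pregranulosa markers to 29.9 TPM, and their part in the Hspa1a reads was not tested. Hspa1b had 150 estimated reads (10.6 TPM) in cell 51 of cluster 1 and 64 reads (2.72 TPM) in cell 28 of cluster 2, and at most 5.21 in any other cell. Stroma and pregranulosa markers summed to 309.8 TPM in cell 51 and to 50.8 TPM in cell 28, and their part in the Hspa1b reads was not tested. Hspa1a and Hspa1b together reached 10 reads in 3 of the kept cells (2.07%, exact 95% interval 0.429 to 5.93%).

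Hspa1a (chr17:34969190-34972156) and Hspa1b (chr17:34956436-34959238) lie on the minus strand and are near-identical copies. Of the words of 31 bases in the Hspa1a transcript, 63.8% also occur in that of Hspa1b, so the division of reads between them is uncertain. Hspa1a also overlaps Gm20481 on the other strand, and without strand their reads cannot be told apart. Hspa1l (chr17:34972703-34979285, plus strand) had 0 reads in every kept cell. With that number of cells, a count of 0 allows a share of up to 2.07% of cells with a read if 3 counts are taken as the limit, and of up to 2.51% by the exact 95% interval, and does not show that the gene is silent.

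In TPM and CPM, Hspa5 and Hspa8 were the most alike pair of members over the kept cells, with a Spearman rho of 0.78 and 0.75. On the spike-in scale theirs was 0.80, below Hspd1 and Hsp90ab1 (0.88), Hspd1 and Hsp90aa1 (0.82) and the Hsp90 pair (0.81). Both genes of a pair are divided there by the same spike-in TPM, which by itself raises rho. The scaled Hsp90ab1, Hspd1 and Hsp90aa1 had a rho of -0.89, -0.84 and -0.80 with that TPM, against -0.28, -0.28 and -0.13 unscaled. The part of the shared divisor in these values was not tested. In TPM the rho of Hspa5 and Hspa8 within clusters 1, 2 and 3 was 0.51, 0.65 and 0.39. Hspa8 and Hspa9 had a rho of 0.62, Hspa8 and Hsp90aa1 of 0.59 (0.31 in CPM), Hspd1 and Hsp90ab1 of 0.56, and Hsp90aa1 and Hsp90ab1 of 0.46 (0.42 in CPM). The Hsp90 pair had a rho of 0.74 within cluster 3 and 0.59 within cluster 2. Over all kept cells the 15 pairs of the 6 abundant members had a positive rho, from 0.31 to 0.78 in TPM and from 0.12 to 0.75 in CPM. Within cluster 1, however, the 5 pairs with Hsp90aa1 were at or below 0, namely -0.43 with Hspa8, -0.33 with Hspd1, -0.29 with Hsp90ab1, -0.04 with Hspa5 and -0.01 with Hspa9. The rho of Hspa2 with these 6 lay between -0.30 and -0.03 in TPM. The points share a TPM total in each cell, and depth and mitochondrial share vary with them.

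**Figure D4:**
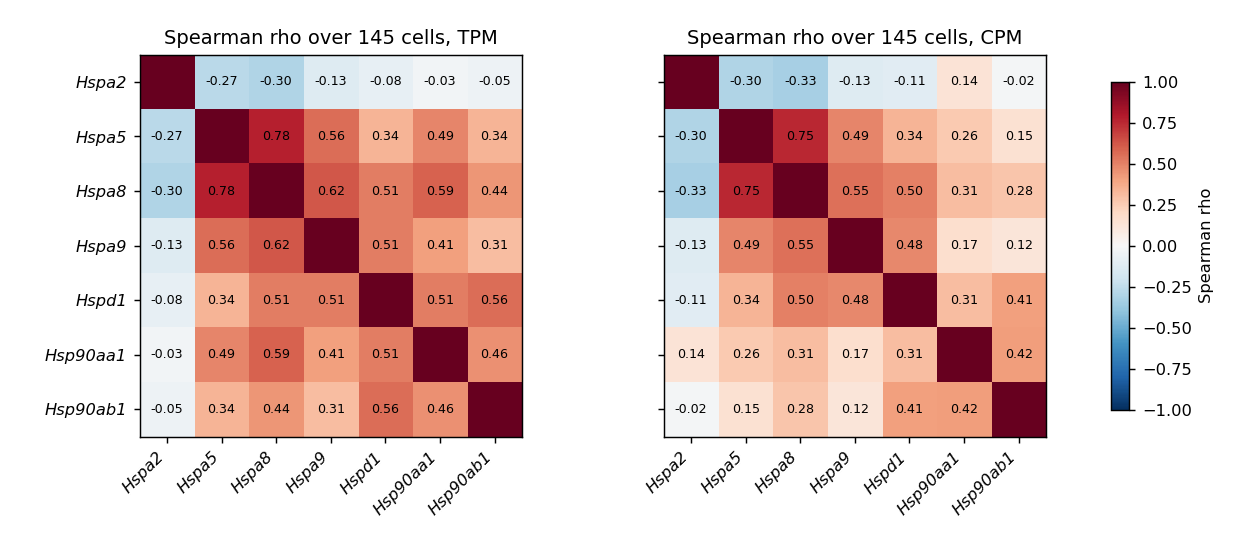
Spearman's rho between 7 members over the kept cells, in TPM (left) and CPM (right), from blue (negative) to red (positive). Hspa5 and Hspa8 have the highest value on both scales (0.78 and 0.75), and Hspa2 is near or below 0 with every other member in TPM.

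Among 6680 other coding genes, those most like Hspa8 were Cct8 (rho 0.83), Cct7 (0.80) and Gpbp1 (0.78). Cct7 and Cct8 are subunits of the cytosolic chaperonin, which folds actin and tubulin. The genes most like Hspa5 were Dld (0.79), Cct7 (0.77) and Tktl1 (0.77), those most like Hsp90aa1 were Prdx1 (0.61), Cct7 (0.60) and Rplp0 (0.60), at 0.46, 0.36 and 0.35 in CPM, and those most like Hsp90ab1 were Pkm (0.55), Eef1a1 (0.51) and Setd3 (0.49). Hspa9 was most like Rtn3 (0.64), Ddx1 (0.63) and Polr2b (0.63), and Hspd1 most like Wdr36 (0.58), Sumo3 (0.56) and Tm9sf2 (0.55). The median rho over these genes was between 0.09 and 0.12 for each member.

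The rest of the chaperone network was read from lists, for cluster 3 over 1. A gene that reaches 1 TPM in only 1 of these clusters almost has to differ, so the lists were counted over genes whose mean reached 1 TPM in both. Of 10005 such coding genes, 35.9% were lower and 23.2% higher, and a share of a list near these is no result about the list. Of 8 chaperonin genes matched as coding, 6 (75%) were lower and 1 higher by 1.5-fold in cluster 3 than in cluster 1, with a median log2 ratio of -1.30 beside -0.22 over all coding genes. Cct7 (574 to 156 TPM, -1.88), Cct5 (-1.64), Cct4 (-1.40) and Cct8 (-1.38) had the lowest ratios of these 8 in TPM, while in CPM Cct3, at -1.55, stood second to Cct7 (-1.70). Cct6a, a further subunit, was matched to no coding gene and left out of the count, and its means of 878 and 303 TPM in clusters 1 and 3 are a log2 ratio of -1.53. Hspe1, the lid of the Hspd1 chamber, was the gene that was higher, at 636, 1203 and 1405 TPM in clusters 1, 2 and 3. Its divergent neighbour Hspd1 had a log2 ratio of -0.15 in the same comparison, and the rho of the 2 genes over the kept cells was 0.03. Hspd1 and Hspe1 start on opposite strands within a shared region, and GENCODE models of them overlap there.

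Of the 23 endoplasmic reticulum genes, 14 (60.9%, beside 35.9% of coding genes) were lower and 1 was higher, with a median of -0.63. With the highest cell of each cluster left out in turn, 10 of the 14 remained lower and the 1 higher gene did not remain higher. In CPM, Hsp90b1 (-0.41), Dnajb11 (-0.39), Dnajc3 (-0.57), Manf (-0.42) and Sel1l (-0.02) of the 14 did not pass the limit. Atf4 (0.62) and Ern1 (1.44) were higher in CPM. Of coding genes with a mean of 1 TPM in either cluster, 33.7% were lower in CPM. On the spike-in scale Pdia6 (-1.08), Herpud1 (-1.99) and Ddit3 (-1.52) were lower. Canx (0.91), Sdf2l1 (0.76), Hyou1 (0.75), Atf4 (0.85) and Ern1 (0.93) were higher on that scale. Besides Hspa5, the disulfide isomerase genes Pdia6 (345 to 104.1 TPM, -1.72) and Pdia3 (-1.28) and the stress genes Ddit3 (-1.92) and Herpud1 (-1.65) had the largest ratios, but Herpud1 was at 0.06 without its highest cell of cluster 1. Hspa5 and Pdia6 had a rho of 0.72 over the kept cells, and of 0.63, 0.60 and 0.02 within clusters 1, 2 and 3. With Pdia4, Calr, Hsp90b1 and Canx, genes of the same compartment, the rho of Hspa5 was 0.55, 0.54, 0.43 and 0.39. Hsp90b1, the Hsp90 of the same compartment, was at -0.59, and at -0.47 without 1 cell. Of 13 mitochondrial folding and protease genes, 6 were lower (46.2%) and 3 higher (23.1%), shares not far from those of coding genes, with a median of -0.11. Htra2 (-1.92) and Yme1l1 (-1.55) were the lowest, and Hscb (1.38) and Hspe1 (1.14) the highest.

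Of 14 J-domain co-chaperones, 9 (64.3%) were lower and 1 higher, with a median of -0.76, and Dnajb11 among the 9 was at -0.53 without 1 cell. Dnaja4 (-2.38), Dnajb3 (-2.02), Dnajb14 (-1.64) and Dnajb1 (-1.41) had the largest ratios in TPM. In CPM, Dnaja1 (-0.53), Dnajb11 (-0.39), Dnajb14 (-0.39) and Dnajc3 (-0.57) of the 9 did not pass the limit, so the share depends on the scale. Of coding genes with a mean of 1 TPM in either cluster, 33.7% were lower in CPM. On the spike-in scale Dnaja4 (-1.72), Dnajb3 (-1.72) and Dnajb14 (-0.63) were lower, and Dnajb2 (1.08), Dnajb4 (0.64) and Dnajb6 (1.57) higher. Of 19 Hsp90 paralogues and co-chaperones, 8 (42.1%, close to the 35.9% of coding genes) were lower and 0 higher (median -0.46), among them Stip1, which joins Hsp70 to Hsp90 (211 to 81.1 TPM, -1.37), and Chordc1 (-1.06), Trap1 (-1.01) and Fkbp4 (-0.82, but -0.33 in CPM). With the highest cell of each cluster left out in turn, 5 of the 8 remained lower. In CPM, Hsp90b1 (-0.41), Fkbp4 (-0.33), Ppid (-0.4) and Ppp5c (-0.48) of the 8 did not pass the limit. Cdc37 (0.72) and Unc45a (1.09) were higher in CPM. On the spike-in scale Stip1 (-0.7) and Chordc1 (-0.68) were lower. Higher on that scale were Ahsa2 (0.82), Cdc37 (1.18), St13 (0.62), Fkbp5 (0.95), Stub1 (1.2), Unc45a (1.05) and Tomm34 (0.67). Of 8 nucleotide exchange factors 1 was lower, Hspbp1 (-0.62, or -0.47 without 1 cell), and 2 (25%, beside 23.2%) were higher, Bag6 (1.11) and Grpel2 (1.11), with a median of 0.21. Of 6 other Hsp70 and Hsp110 genes 1 was lower, Hspa4l at -1.93, and 0 were higher. These lists also shift with the scale: on the spike-in scale, where the median of these coding genes was 0.44, the medians were -0.42 for chaperonins, 0.01 for the endoplasmic reticulum list, -0.10 for J-domain co-chaperones, 0.28 for the Hsp90 list and 0.93 for exchange factors.

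Heat shock factors and heat-inducible genes were read beside Hspa1a and Hspa1b. Hsf1, the master regulator of the heat shock response, had a mean of 61.8 TPM, Hsf2 57.2, Hsf5 9.78 and the factor-binding Hsbp1 82.9. Hsf1 was at 38.3, 60.2 and 79.1 TPM in clusters 1, 2 and 3, but 1 cell of cluster 3 held 1109 TPM, and without it that mean was 47.9 TPM. Of 7 genes of that list, 4 reached a mean of 1 TPM. Of the 15 heat-inducible genes outside the members, 11 did, with means of 1176 TPM for Hspe1, 474 for Dnaja1, 285 for Fkbp4 and 127.3 for Stip1, and Bag3, Cryab, Hspb8 and Serpinh1 did not. Of 10 with at least 1 TPM in both clusters, 6 (60%) were lower and 2 (20%) higher in cluster 3, beside 35.9% and 23.2% of coding genes (median -0.77), and Hmox1, 1 of the 2 higher genes, was at 0.28 without 1 cell. Of the 6, Dnaja1 (-0.53) and Fkbp4 (-0.33) did not pass the limit in CPM. On the spike-in scale Hspa4l (-1.44), Chordc1 (-0.68) and Stip1 (-0.7) did, and the median of the list was 0.01. Each of the 6 also counts in the J-domain, Hsp70 or Hsp90 list above. The small heat shock proteins were mostly near 0: 3 of 10 had a mean of 1 TPM, namely Hspb11 (40.1), Hspb6 (8.59) and Hspb1 (1.06).

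The meiotic prophase genes, read for comparison, had a median log2 ratio of -1.40 for cluster 3 over 1. Of these, 14 of 20 (70%) were lower and 1 higher, beside 35.9% and 23.2% of coding genes. The clusters were rebuilt from genes that include the meiotic Sycp2, so this difference is partly built in. In the summed TPM of the list, Sycp3 (mean 2656 TPM) and Sycp1 (1081 TPM) weigh most, at log2 ratios of -0.23 and -0.25 for cluster 3 over 1. This sum had a rho of 0.61 with Hspa5, 0.52 with Hspa8 and 0.40 with Hspa9 over the kept cells, and of 0.37, 0.26 and 0.19 within cluster 2. With Hspa2 it was -0.21, and -0.20 within cluster 2. For single genes within cluster 1, the rho of Hspa2 was 0.58 with Sycp3, 0.53 with Hormad1, 0.18 with Cdk1 and -0.23 with Sycp1.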

How the data were processed

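RNA of single germ cells was measured by Smart-seq2. The authors quantified reads with Salmon against mm10 with spike-ins and deposited, per gene symbol and cell, TPM (with spike-ins, summing to 1000000), the estimated count of reads, left without normalization, and transcript lengths. FastQC is also named in the submitters' processing notes. No cell was lost here to the study's limits read from estimated counts, although the paper reports that some cells did not pass them. Read from TPM, 141 cells pass the same limits.

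Seurat 5.3.0, run in R 4.3.3, gave the rebuilt clusters, from TPM and the principal components of 20 feature genes (10 components, 20 neighbours, the lowest resolution giving 3 clusters). Clusters are called by number, and their sizes differ from those the paper gives for its own 3 clusters. Means, log2 ratios with a pseudocount of 1 TPM, exact 95% intervals and Spearman's rho came from SciPy 1.17.1, NumPy 2.4.6 and pandas 2.3.3 under Python 3.11.15. A difference is at least 1.5-fold, and the share of coding genes past it stands beside each count of members. The log2 ratio was tested on simulated counts of abundant genes, a setting unlike Hspa2 or Hspa1a, whose reads lie in few cells. The chi-square of library pairs was tested on redrawn reads. Other calculations were not simulated. CPM is the estimated count of a gene per 1000000 estimated reads of the cell.

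Symbols were matched to GENCODE M21 (28006), RefSeq symbols (35) and RefSeq synonyms (268), which gave 19779 coding genes, and 24296 symbols had no match. Gene positions are those of GENCODE M21 on GRCm38, the assembly that mm10 names. RefSeq promoter windows of GRCm38.p6 were read for 6 of 10 members, counted by symbol, with 1 start or more. Windows on chromosome 18, where Hspa9 lies, were left out, so the motifs of Hspa9 were not read.

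The members and lists were chosen with earlier results of these data known. Named genes were the members, the 3 coding genes most like each abundant member (mean of at least 10 TPM, at least 1 TPM in 50% of cells) and up to 4 genes per list with the largest ratio between clusters 1 and 3, or the highest mean. Genes named outside that rule, after their values were seen, are Hmox1, Bag3, Cryab, Hspb8, Serpinh1, Hsph1, Hspb1, Hsp90b1, Cct6a, the small nucleolar RNAs and Gm20481, Hspe1 in its pair with Hspd1, and marker genes. Also outside it are Pdia4, Calr and Canx, read beside Hspa5, and Cct3, Dnajb11 and Klf4. So are Sycp1, Sycp3, Hormad1 and Cdk1, read beside Hspa2. The same holds for list genes named only for their value in CPM or on the spike-in scale. Alternatives were all cells, medians, CPM, spike-in scaling, other detection limits, pseudocounts, minimums and clusters, 3 equal parts of the order, cells passing the TPM limits, the summed Hspa1a and Hspa1b pair, and each cell left out. Lengths per kilobase, and leaving out 27 cells with much RNA of other cells' markers, were added after the data were seen, as was averaging the 7 pairs of libraries with a correlation of at least 0.95, and counting list genes that reach 1 TPM in both clusters.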

Additional observations from a re-analysis of the deposited data

Results flagged for a closer look

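The library left out, with 0 TPM of Ddx4, lies outside the comparisons above. In its 1408459 reads, 3 members had at least 3 estimated reads, the limit that a count of 0 allows: Hspa9 with 96 reads (87.1 TPM), Hspd1 with 16 (4.71 TPM) and Hsp90aa1 with 5.86 (4.69 TPM). Hspa8 had 1.47 reads and Hsp90ab1 2, and Hspa2, Hspa1a, Hspa1b, Hspa1l and Hspa5 had 0. In the kept cells Hsp90aa1 was never below 389 TPM.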

How the results depend on the processing

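With 1 sample, the alternatives show how values move, not how far they would repeat. The 3 members lower in cluster 3 than in cluster 2, and the 6 lower than in cluster 1, stayed within 1.5 times those counts under every alternative run, but became 2 and 4 on the spike-in scale, where 9.52% and 22.2% of coding genes were lower, in place of 30.1% and 38.4%, and where Hspa9 (-0.28 and -0.55) and, for cluster 3 over 1, Hsp90aa1 (-0.11) no longer passed the limit. In CPM Hsp90aa1, at -0.49, did not pass it either. With clusters of 2000 variable genes the count for cluster 3 over 1 was also 4, as Hspa2 and Hsp90aa1 were at -0.57. The count of members lower in cluster 2 than in cluster 1 was 4, and became 5 on the spike-in scale (Hspa8 at -0.60), 2 with all 146 cells clustered, in CPM and with the cells passing the limits read from TPM, and 1 with Ward clusters, beside log2 ratios of -0.60 for Hspa5 and -0.61 for Hsp90aa1 and a limit of 0.58. It was 2 at the lowest and 4 at the highest as each cell was left out, and 2 without any of 3 cells of cluster 1, cells 26 and 100 among them. With Ward clusters 1 member, Hspa1a, was higher in cluster 2 than in cluster 1, at a log2 ratio of 1.62, and its ratio for cluster 3 over 1 was 0.00, because cell 100 then lies in cluster 2. The count higher in cluster 3 than in cluster 2 was 1, and became 4 on the spike-in scale and 0 with clusters of 2000 variable genes, and that of cluster 3 over 1 went from 0 to 2 on the spike-in scale, where 52.4% and 44.8% of coding genes were higher, so these counts say nothing about the members. Of 299 alternatives for single ratios, 265 moved by less than 1.5-fold, and of the alternatives for rho 80 moved by at most 0.2 and 24 by more, among them 9 within cluster 1. Without the 27 cells with much RNA of other cells' markers, each count stayed within 1.5 times, and with the 7 near-repeat pairs averaged each was the same.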

Other observations

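The immediate early genes, which respond to handling and to growth signals, were also read. Of the 8 with at least 1 TPM in both cluster 1 and cluster 3, 5 (62.5%) were higher and 2 lower in cluster 3, beside 23.2% and 35.9% of coding genes, with a median log2 ratio of 1.28. Ier2 went from 29.9 to 155 TPM, while Jun went from 20.2 to 1.94 TPM. Klf4, the other lower gene, was at -0.30 in place of -1.01 without 1 cell, and the mean of Jun in cluster 1 was 10.9 TPM without 1 cell at 187 TPM. Fos was under 1 TPM in cluster 1 and is not among the 8. Its mean was 0.0595 TPM in cluster 1 and 28.7 TPM in cluster 3, where 1 cell held 576 TPM. Without that cell it was 12.1 TPM, and its median was 0 in both clusters. The summed TPM of the whole list had a rho of -0.41 with Hspa5 and -0.39 with Hspa8 over the kept cells, and of -0.18 and -0.13 within cluster 2.

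In 1 cell of cluster 1, globin and other blood or endothelial markers held 32.5% of the TPM, and the next cell had 4.85%. That cell had 8767 TPM of Hsp90aa1, 750 of Hspa8 and 363 of Hspa5.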
